A study of Mus musculus with 16 samples.

Results

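The genes described here are 42 genes of the cell division cycle, 19 that act in DNA replication (S phase) and 23 that act in the G2 phase and mitosis (G2/M). They were taken by name from a table of 52997 gene symbols, and all 42 were found. Their levels are read library by library in 7 groups of mouse samples, as CPM, the read count of a gene scaled to a common library total. Whether a member serves S phase or G2/M was assigned from textbook function, not from these values.

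The samples were RNA of Tregs (regulatory T cells, which carry the factor Foxp3 and hold immune reactions in check) and of whole skeletal muscle, from B6 mice aged 6 to 8 weeks. Tg mice are mTreg24 TCR-tg+ and carry a T cell receptor transgene derived from a muscle Treg, and WT mice are mTreg24 TCR-tg-. For the Treg samples both carried a Foxp3-GFP reporter. Vβ8+ Tregs were sorted from Tg mice and total Tregs from WT mice, and genotype and sort gate therefore cannot be told apart. The 5 Treg groups had 2 libraries each: WT muscle, Tg muscle, WT spleen and injured Tg spleen, 3 days after muscle injury by cardiotoxin, a toxin that kills muscle fibres, and uninjured Tg spleen. The 2 whole muscle groups, WT and Tg, had 3 libraries each, 8 days after injury. That the WT spleen came from injured mice is stated in the series' design text alone. The labels do not say whether libraries came from separate animals or pools, so p-values measure only how far these libraries differ, and that may be a technical spread.

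Before a cell copies its DNA, the MCM helicase is loaded onto replication origins with the help of Cdc6 and Cdt1, and cyclin E and E2F factors then start S phase. Cyclins A and B with the kinase Cdk1 later drive the cell into mitosis, where the spindle checkpoint, the Aurora and Polo kinases and the mitotic kinesins divide the chromosomes. S phase genes are known as targets of E2F factors, and G2/M genes as targets of complexes that bind a CHR element near a CCAAT box. Tregs are known to accumulate in injured muscle, in part by dividing there.

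Library depth was 1986700 to 9116800 counts in Tregs and 5095999 to 7075420 in whole muscle. No member was at 0 in a Treg library, where a count of 0 would allow up to 0.329 to 1.51 CPM (3 counts, covering counting error only). Treg and T cell markers summed to between 5965 and 8649 CPM in the Treg libraries and to between 1.59 and 7.39 CPM in whole muscle. WT spleen replicate 2 stood apart. Its 6 B cell markers summed to 1949 CPM, against 43.2 to 146.8 CPM in the other Treg libraries, and its 4 plasma cell markers to 1015 CPM, against 48.5 to 177 CPM. Most of this was Igkc (1864 CPM) and Jchain (981 CPM), which encode antibody chains. WT muscle replicate 2 had the fewest genes detected (17081), although it was the deepest library (9116800 counts). Genes known to respond to dissociation and heat summed to between 5203 and 6243 CPM in muscle Tregs and to between 1071 and 1271 CPM in spleen Tregs. Macrophage markers summed to between 4.76 and 18.97 CPM in muscle Tregs and to between 44.8 and 118 CPM in spleen Tregs. The part of these differences in the results below was not tested beyond the values given without a library.

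The S phase members were at similar summed levels in all muscle Treg libraries, whereas the G2/M members varied from library to library in both tissues. The S phase sum was 2236 and 2030 CPM in WT muscle, 2059 and 2088 in Tg muscle, 1661 and 1046 in WT spleen, 1784 and 1619 in injured Tg spleen, and 1499 and 2078 in uninjured Tg spleen. The muscle libraries thus lay above those of WT spleen and injured Tg spleen, and uninjured Tg spleen replicate 2 reached the muscle level. The G2/M sum was 1305 and 844 CPM in WT muscle, 728 and 1066 in Tg muscle, 1091 and 308 in WT spleen, 1172 and 849 in injured Tg spleen, and 767 and 1545 in uninjured Tg spleen. Here every group overlapped the others, with the lowest value in WT spleen replicate 2 and the highest in uninjured Tg spleen replicate 2. The ratio of the S phase to the G2/M sum ran from 1.35 in the latter to 3.40 in the former. In bulk RNA a smaller share of dividing cells and less RNA per dividing cell cannot be told apart.

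**Figure D1:**
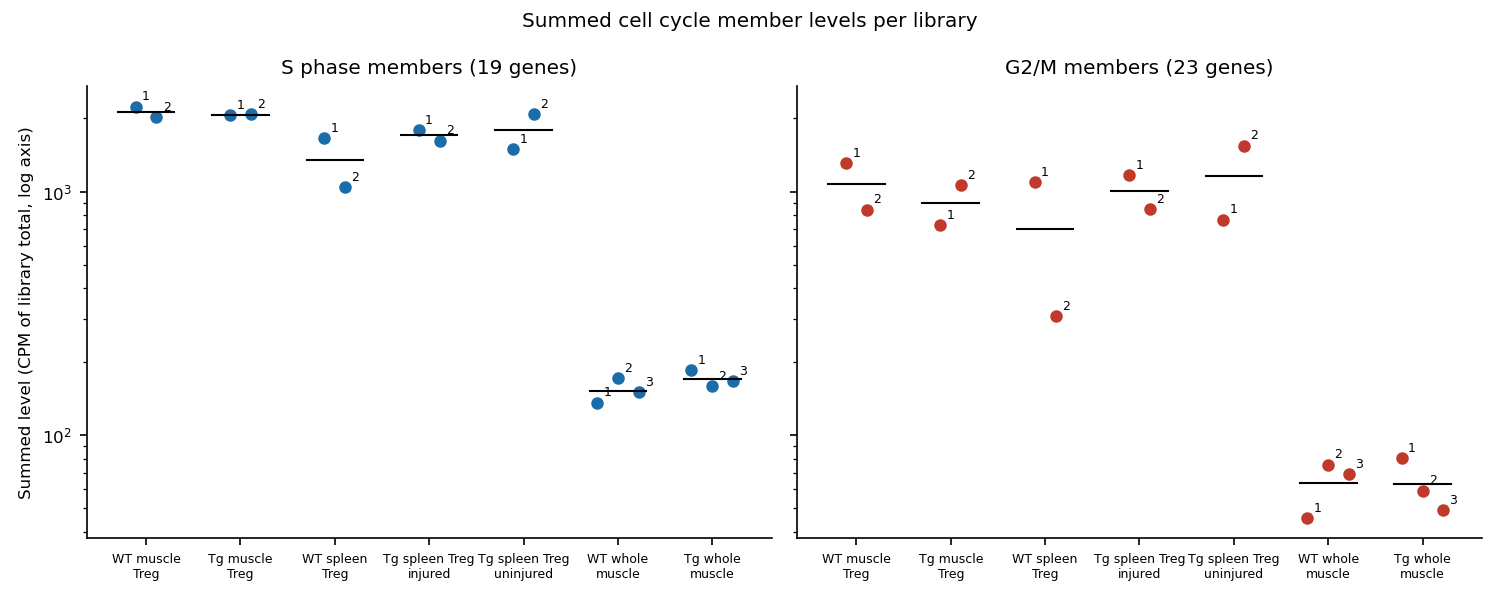
Summed levels of the 19 S phase members (left) and the 23 G2/M members (right) in each library, as CPM on a log axis, with the replicate number beside each point and the group mean as a line. In the S phase panel the muscle Treg libraries lie between 2030 and 2236 CPM, and in the G2/M panel the 10 Treg libraries spread from 308 to 1545 CPM across both tissues.

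Scaling matters for these sums. With library totals the median tested gene was 0.21 (WT) and 0.23 (Tg) lower in muscle than in spleen on the log2 scale, and 0.04 lower in each with TMM scaling, which sets libraries on a common scale by a trimmed mean of gene ratios. TMM-scaled, the S phase sum was 2337 and 2270 CPM in WT muscle and 2233 and 2274 in Tg muscle, above all spleen libraries, of which uninjured Tg spleen replicate 2 was the highest at 1977. The fold changes and tests below use TMM, and the levels use library totals.

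The promoters of the members differ by phase, which is shown here because both phases are compared throughout. Of the 42 members, 36 have an entry in the RefSeq promoter table (GRCm38.p6, from 250 bases before to 50 bases after the transcription start). The letters CCAAT, on either strand, occur in 18 of 20 G2/M promoters (90%) and 10 of 16 S phase promoters (62.5%), against 41.1% of all promoters of that length. The CHR letters TTTGAA occur in 15 of 20 G2/M (75%) and 2 of 16 S phase promoters (12.5%), against 20.2% of all. One of the E2F words TTTGGCGC, TTTCCCGC and TTTCGCGC occurs in 7 of 16 S phase promoters (43.8%) and in 1 G2/M promoter (5%), that of Cdk1, against 2.12% of all. CCAAT and CHR letters occur together in 75% of G2/M, 12.5% of S phase and 7.97% of all promoters. These are matches of letters, not measured binding.

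The 150 bases before the start are given for 5 members that passed the test in WT Tregs below and for 3 mitotic members that did not (Cdk1, Cdc20, Ccnb2). They run from position -150 to -1 in the direction of transcription, with CCAAT, CHR and E2F letters (or their reverse complements) in capitals. Mcm2 (chr6:88898781-88898930, minus strand) has a CHR match at -70. Mcm5 (chr8:75109359-75109508, plus strand) has an E2F match at -149 and CCAAT at -77 and -22. Mcm6 (chr1:128359706-128359855, minus strand) has E2F matches at -110, -106 and -47, of which the first pair overlap, and CCAAT letters at -57 and -14. Kif23 (chr9:61946800-61946949, minus strand) has CCAAT letters at -7, and its CHR match lies just after the start, at position 3. Mki67 (chr7:135716380-135716529, minus strand) has CCAAT at -141 and CHR at -116 and -98. Cdk1 (chr10:69352913-69353062, minus strand) has all 3 kinds, with E2F at -131, CCAAT at -80 and -48 and CHR at -71 and -15. Cdc20 (chr4:118437344-118437493, minus strand) has CCAAT at -53 and -8 and CHR at -18. Ccnb2 (chr9:70421555-70421704, minus strand) has CCAAT at -87, -54 and -21, and its CHR matches lie outside the stretch shown, at -167 and at position 5. Further CCAAT letters outside the stretch are in Mcm2 (-175), Mcm5 (position 7), Mki67 (-188 and -166) and Cdk1 (-208). An E2F match in Mcm5 (-153) runs into the stretch. Of the other members that passed, Mcm4 has no promoter entry, and Cdt1 and Pcna are not printed. Cdt1 has only an E2F match, at position 33, and Pcna only CCAAT letters, at -87.
Mcm2: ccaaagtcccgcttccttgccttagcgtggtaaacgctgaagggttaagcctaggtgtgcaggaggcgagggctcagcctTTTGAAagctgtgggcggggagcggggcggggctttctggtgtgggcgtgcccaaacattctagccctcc
Mcm5: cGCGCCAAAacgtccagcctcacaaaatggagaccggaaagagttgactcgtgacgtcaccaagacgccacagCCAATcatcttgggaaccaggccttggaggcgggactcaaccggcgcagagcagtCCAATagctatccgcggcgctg
Mcm6: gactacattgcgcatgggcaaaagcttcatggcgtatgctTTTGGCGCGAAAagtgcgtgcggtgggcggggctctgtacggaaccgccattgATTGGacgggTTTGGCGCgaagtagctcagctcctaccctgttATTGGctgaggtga
Kif23: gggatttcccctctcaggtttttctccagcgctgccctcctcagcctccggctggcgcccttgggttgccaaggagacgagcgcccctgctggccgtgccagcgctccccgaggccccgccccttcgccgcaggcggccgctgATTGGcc
Mki67: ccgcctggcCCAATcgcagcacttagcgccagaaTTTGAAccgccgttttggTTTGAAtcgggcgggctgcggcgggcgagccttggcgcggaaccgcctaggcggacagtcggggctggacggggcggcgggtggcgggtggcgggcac
Cdk1: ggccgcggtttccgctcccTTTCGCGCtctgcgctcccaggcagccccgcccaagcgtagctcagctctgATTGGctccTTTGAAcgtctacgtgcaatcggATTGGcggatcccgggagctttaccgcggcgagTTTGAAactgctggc
Cdc20: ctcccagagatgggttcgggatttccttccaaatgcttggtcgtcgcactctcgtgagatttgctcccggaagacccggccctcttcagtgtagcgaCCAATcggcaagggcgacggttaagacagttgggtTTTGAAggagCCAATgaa
Ccnb2: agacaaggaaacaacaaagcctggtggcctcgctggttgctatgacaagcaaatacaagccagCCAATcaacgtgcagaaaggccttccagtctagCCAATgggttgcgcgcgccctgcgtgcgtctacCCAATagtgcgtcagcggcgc

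**Figure D2:**
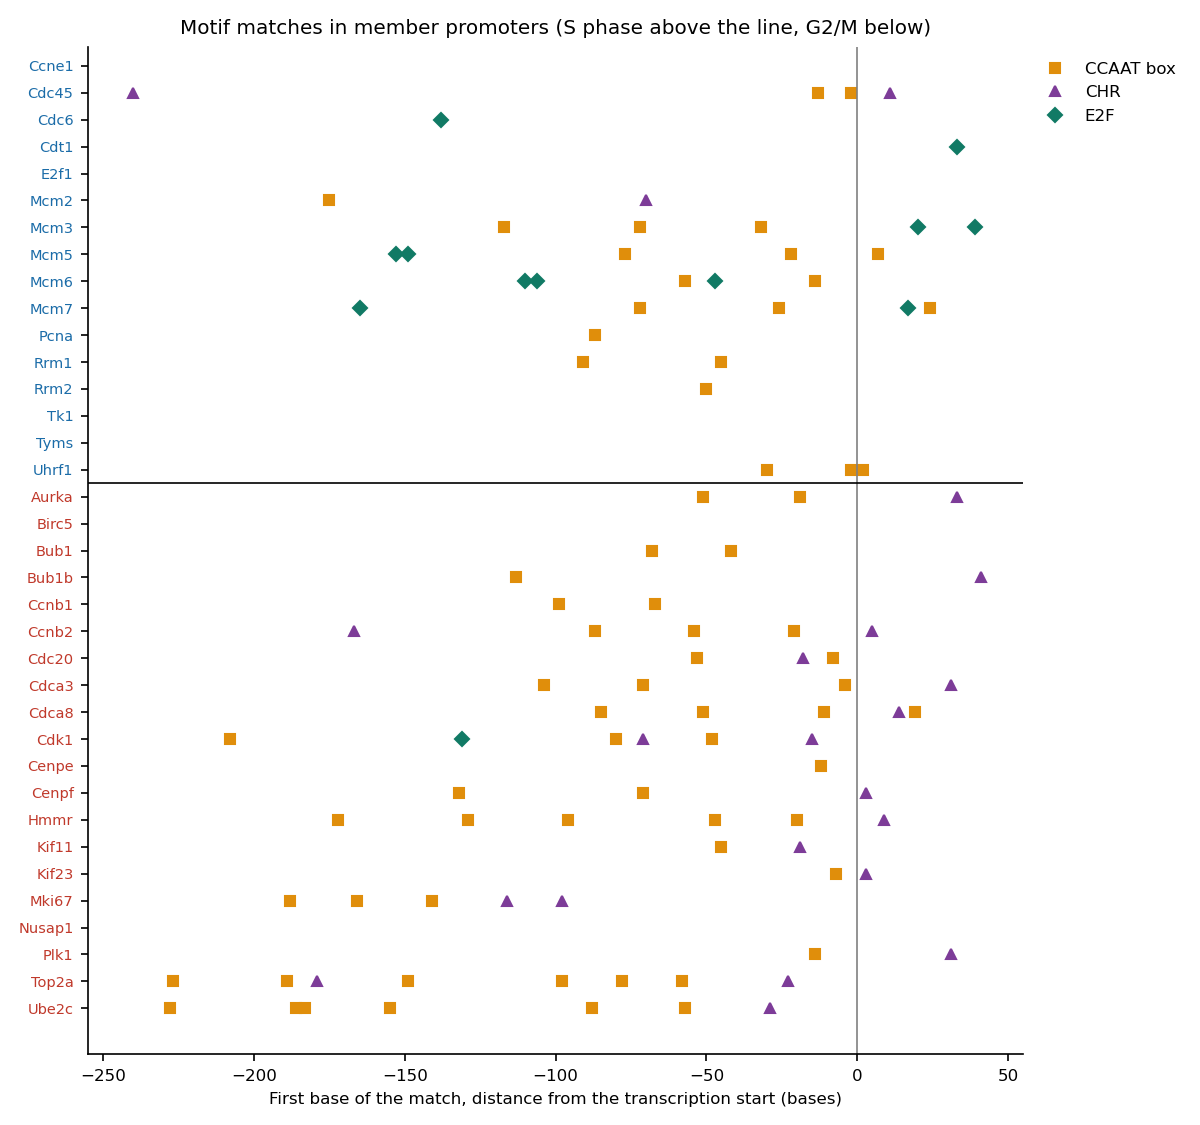
First base of each CCAAT (squares), CHR (triangles) and E2F (diamonds) match by distance from the transcription start in bases, for the 36 members with a promoter entry, S phase genes above the line and G2/M genes below. Triangles occur in 15 of the 20 G2/M rows and in 2 of the 16 S phase rows, and diamonds in 1 G2/M row. For Mcm7 and Uhrf1, which have 2 entries, the first is drawn, and the counts use both.

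Within WT mice the question was how dividing-cell genes differ between Tregs of injured muscle and of spleen. Of the 42 members 8 were higher in muscle and 0 lower (edgeR's quasi-likelihood test, adjusted p under 0.05 over all genes), 6 of 19 S phase and 2 of 23 G2/M members. Over all 13188 tested genes 16.2% were called, and 9.38% were called as higher. The median log2 fold change was 0.95 for S phase and 0.72 for G2/M members, against -0.04 for all tested genes. The difference between the phases was not tested, and its direction depended on the method. With limma-voom, another test, the medians were 1.01 for S phase and 1.27 for G2/M members, with 13 and 9 called. The G2/M median was also the higher one without WT muscle replicate 2 and without WT spleen replicate 1. In the other alternatives described below the S phase median was higher.

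Origin licensing and the helicase held most of these calls, 5 of 10 genes, and all 10 had a positive log2 fold change in WT and in Tg mice. Of all tested genes 47.3% were positive in WT and 46.9% in Tg. Cdt1 (chr8:122568015-122573554), which loads the helicase, was at 121 and 120.5 CPM in WT muscle, 114 and 93.3 in Tg muscle, 61.9 and 57.5 in WT spleen, 68.8 and 67.1 in injured and 68.0 and 49.6 in uninjured Tg spleen. All muscle libraries were above all spleen libraries. The log2 fold change was 1.20 ± 0.20 (SE, here and below, n = 2 libraries per group) in WT (edgeR adjusted p = 0.000799) and 0.81 ± 0.20 in Tg (adjusted p = 0.0198).

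Mcm6 (chr1:128331590-128359664), a helicase subunit and the member with the highest level per length, was at 401 and 391 CPM in WT muscle, 361 and 398 in Tg muscle, 259 and 201 in WT spleen, 282 and 283 in injured and 269.8 and 339 in uninjured Tg spleen. Again the tissues did not overlap. Its log2 fold change was 0.97 ± 0.15 in WT (edgeR adjusted p = 0.000528) and 0.62 ± 0.15 in Tg (adjusted p = 0.0185).

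Mcm2 (chr6:88883474-88898780), another helicase subunit, was at 194 and 174 CPM in WT muscle, 180.3 and 168 in Tg muscle, 113 and 99.3 in WT spleen, 117.1 and 127 in injured and 133 and 170.1 in uninjured Tg spleen. Uninjured Tg spleen replicate 2 lay within the range of Tg muscle, and the other spleen libraries were lower. The log2 fold change was 0.97 ± 0.16 in WT (edgeR adjusted p = 0.000755) and 0.71 ± 0.16 in Tg (adjusted p = 0.0112).

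Mcm4 (chr16:15623897-15637400), also of the helicase, was at 210.1 and 232 CPM in WT muscle, 232 and 219 in Tg muscle, 187 and 166 in WT spleen, 168 and 163 in injured and 127 and 185 in uninjured Tg spleen. All muscle libraries were above all spleen libraries, and the log2 fold changes were 0.52 ± 0.17 in WT (edgeR adjusted p = 0.0496) and 0.64 ± 0.17 in Tg (adjusted p = 0.0302). Mcm5 (chr8:75109569-75128439) was at 207 and 178 CPM in WT muscle, 155 and 178 in Tg muscle, 119.8 and 54.9 in WT spleen, 138 and 121 in injured and 92.2 and 170.4 in uninjured Tg spleen. It passed in WT (1.35 ± 0.36, edgeR adjusted p = 0.0363), a call kept under 9 of 18 alternatives, and was at 0.56 ± 0.35 in Tg (adjusted p = 0.433). The libraries of WT spleen and of uninjured Tg spleen lay far apart, and uninjured Tg spleen replicate 2 reached the muscle range.

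The other licensing genes did not pass in either genotype. Their log2 fold changes in WT and Tg were 0.90 and 0.62 for Mcm3, 0.25 and 0.25 for Mcm7, 1.74 and 0.97 for Gins2, 1.22 and 0.37 for Cdc6 and 0.95 and 0.45 for Cdc45. Gins2 and Cdc45, which complete the active helicase, and Mcm7 share exon bases with genes on the opposite strand (Gse1, Ufd1, and Ap4m1 with Cops6). Without strand information their reads cannot be fully told apart. The same holds for Ccne2, Tk1, Ccna2, Cdc20, Cdca8, Nusap1, Plk1 and Ube2c below.

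Pcna, the sliding clamp that holds the polymerase on DNA (chr2:132249162-132253314), was at 83.0 and 76.8 CPM in WT muscle, 75.5 and 62.4 in Tg muscle, 70.0 and 44.0 in WT spleen, 60.6 and 64.1 in injured and 67.6 and 82.5 in uninjured Tg spleen. It passed in WT by a narrow margin (0.69 ± 0.22, edgeR adjusted p = 0.0481) and was at 0.34 ± 0.22 in Tg (adjusted p = 0.435). Uhrf1, which carries DNA methylation over to the new strand, was at 1.46 ± 0.61 in WT and 0.29 ± 0.58 in Tg (adjusted p = 0.172 and 0.847). The nucleotide supply genes Rrm1, Rrm2, Tk1 and Tyms did not pass, with log2 fold changes from 0.20 to 0.95 in WT and from -0.23 to 0.57 in Tg.

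Rrm2, the limiting subunit of ribonucleotide reductase, was at 171 and 109.6 CPM in WT muscle, 119 and 142 in Tg muscle, 145 and 25.1 in WT spleen, 166 and 130.5 in injured and 142 and 182 in uninjured Tg spleen. The tissues overlapped, and WT spleen replicate 2 was the lowest library. Ccne2, a cyclin E that starts S phase, was at 19.67 and 7.24 CPM in WT muscle, 8.62 and 13.7 in Tg muscle, 10.6 and 5.55 in WT spleen, 14.1 and 12.1 in injured and 11.8 and 21.6 in uninjured Tg spleen. It too overlapped between tissues. Ccne1, the other cyclin E, was at -0.00 in WT and -0.11 in Tg, and the factor E2f1 at 1.37 and 1.21, and neither passed. E2f1 was low, at most 9.31 CPM in any Treg library.

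**Figure D3:**
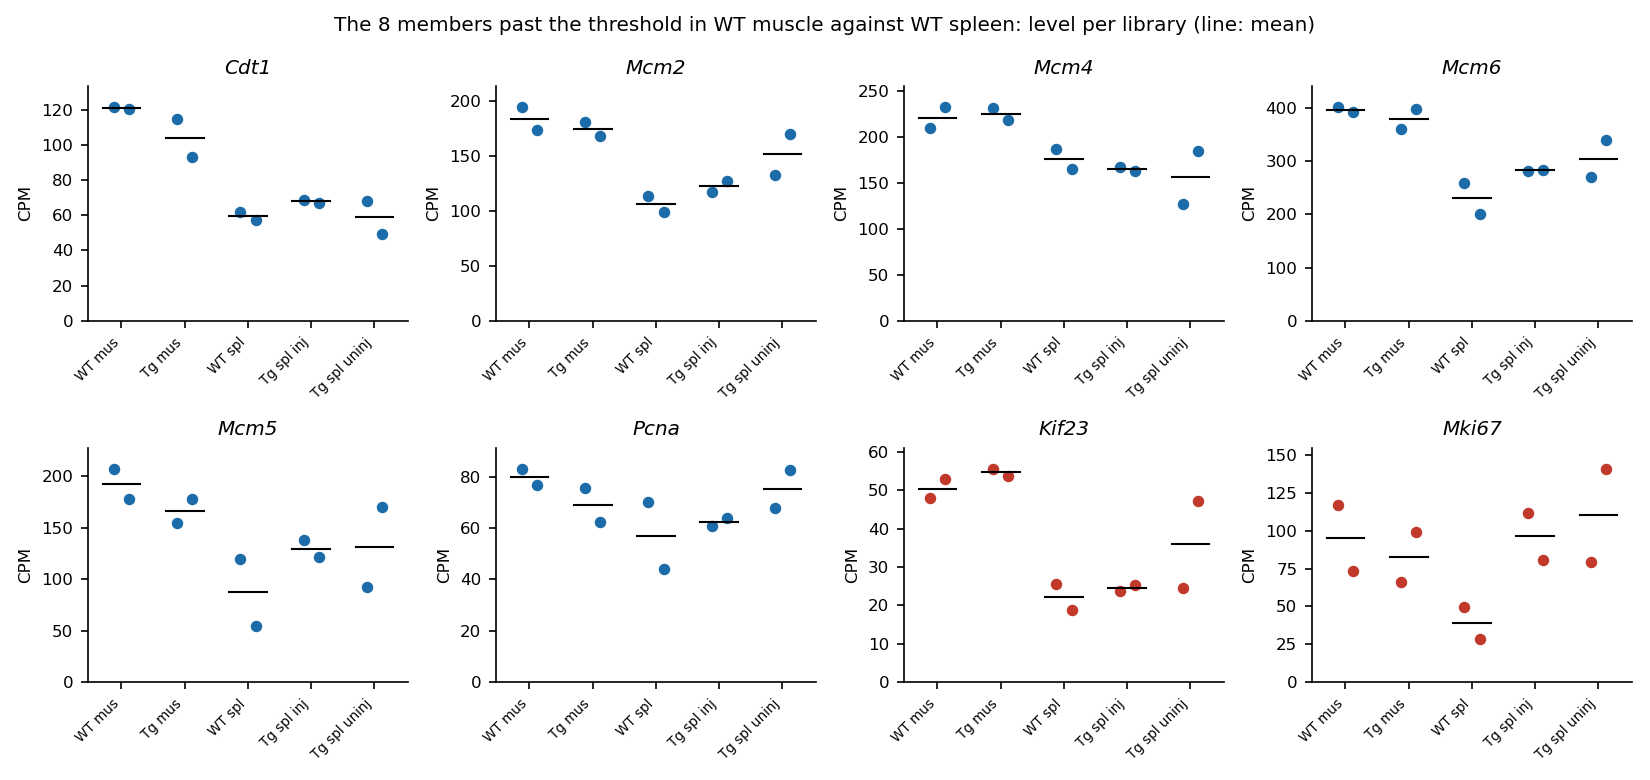
CPM (library totals, axes from 0) in each Treg library for the 8 members that passed the threshold in WT muscle against WT spleen, S phase genes in blue and G2/M genes in red, with the mean of each group as a line. For Cdt1, Mcm6 and Mcm4 all muscle points lie above all spleen points, and for Kif23 the highest spleen point (47.2 CPM) is uninjured Tg spleen replicate 2.

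Of the G2/M members, Kif23 passed in both genotypes. Kif23 (chr9:61915905-61946774), a kinesin of the midzone of the spindle that acts when the cells separate, was at 48.0 and 52.8 CPM in WT muscle, 55.5 and 53.6 in Tg muscle, 25.7 and 18.9 in WT spleen, 23.7 and 25.3 in injured and 24.6 and 47.2 in uninjured Tg spleen. All muscle libraries were above all spleen libraries, uninjured Tg spleen replicate 2 by a small margin. The log2 fold change was 1.39 ± 0.30 in WT (edgeR adjusted p = 0.00518) and 1.35 ± 0.29 in Tg (adjusted p = 0.0089).

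Mki67 (chr7:135689784-135716361), which encodes the proliferation marker Ki-67 of mitotic chromosomes, was at 116.7 and 73.4 CPM in WT muscle, 66.2 and 99.1 in Tg muscle, 49.3 and 28.9 in WT spleen, 112 and 80.8 in injured and 79.4 and 140.7 in uninjured Tg spleen. The WT spleen libraries were the lowest, while injured Tg spleen overlapped muscle. It passed in WT (1.49 ± 0.36, edgeR adjusted p = 0.0199) and was at -0.01 ± 0.34 in Tg (adjusted p = 0.991). The difference between both tissue effects was -1.50 ± 0.50, which did not pass (adjusted p = 0.45).

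The other 21 G2/M members did not pass in either genotype, and their spread between libraries was wide. Top2a, the topoisomerase that untangles chromosomes, was at 186 and 107 CPM in WT muscle, 104 and 172 in Tg muscle, 129.9 and 33.3 in WT spleen, 143 and 144 in injured and 104 and 180.1 in uninjured Tg spleen. Cdk1, the kinase that starts mitosis, was at 49.7 and 36.0 CPM in WT muscle, 32.4 and 41.7 in Tg muscle, 39.8 and 12.9 in WT spleen, 38.8 and 34.5 in injured and 36.1 and 53.9 in uninjured Tg spleen. For both genes WT spleen replicate 2 was the lowest library and the remaining libraries overlapped across tissues.

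Ccnb1, cyclin B1, was at 48.0 and 29.6 CPM in WT muscle, 18.97 and 36.7 in Tg muscle, 46.3 and 9.11 in WT spleen, 37.4 and 26.2 in injured and 22.9 and 52.3 in uninjured Tg spleen. Aurkb, the kinase that corrects attachments of chromosomes, was at 62.9 and 33.0 CPM in WT muscle, 37.2 and 42.1 in Tg muscle, 64.9 and 11.99 in WT spleen, 59.6 and 26.2 in injured and 25.3 and 61.2 in uninjured Tg spleen. In both genes the libraries of one group differed by as much as the tissues.

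Birc5, survivin, which works in one complex with Aurkb, was at 60.3 and 28.9 CPM in WT muscle, 28.3 and 39.9 in Tg muscle, 54.9 and 13.6 in WT spleen, 57.0 and 45.6 in injured and 37.1 and 77.4 in uninjured Tg spleen. Ube2c, which helps the anaphase-promoting complex destroy cyclin B, was at 63.4 and 52.4 CPM in WT muscle, 31.7 and 43.3 in Tg muscle, 74.5 and 10.2 in WT spleen, 60.6 and 48.0 in injured and 44.0 and 86.5 in uninjured Tg spleen. The ranges of the tissues overlapped for both. By role, the median log2 fold change in WT and Tg was 0.84 and -0.08 for the 4 genes of cyclins and Cdk1. It was 0.61 and -0.09 for the 5 mitotic kinases and passenger genes, and 0.56 and -0.32 for the 3 genes of protein destruction. For the 4 kinesins and kinetochore genes, Kif23 included, it was 0.89 and -0.11. The remaining roles had medians above 0 in both genotypes. These were 1.43 and 0.70 for the 2 spindle checkpoint genes and 0.69 and 0.37 for the 3 spindle assembly genes. For Mki67 and Top2a, of chromosome structure, they were 1.27 and 0.07.

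The remaining G2/M members are given by their log2 fold change in WT and Tg. The spindle checkpoint holds anaphase until chromosomes are attached, and its kinase Bub1 had the largest value of all members in WT (2.33, edgeR adjusted p = 0.0963) and was at 0.78 in Tg, while Bub1b was at 0.54 and 0.63. Tpx2, Nusap1 and Hmmr, which build the spindle, were at 1.11 and 0.41, 0.56 and 0.06, and 0.69 and 0.37. Of the kinases and their partners, Plk1 was at 0.70 and -0.29, Aurka at 0.18 and 0.05, and Cdca8 of the Aurkb complex at 0.80 and -0.09. Cyclins A2 and B2 (Ccna2 and Ccnb2) were at 1.14 and -0.18, and 0.74 and -0.52. Cdc20, the activator of the anaphase-promoting complex, was at 0.40 and 0.13, and Cdca3 at 0.56 and -0.32. The spindle kinesin Kif11 was at 0.39 and -0.40, and the kinetochore genes Cenpe and Cenpf were at 1.69 and -0.25, and 0.29 and 0.03. All of these were positive in WT, and in Tg they lay on both sides of 0.

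In Tg mice the same question was asked of muscle against injured spleen, with no library shared with the WT comparison. Both comparisons came from 1 fit, which gave each gene 1 spread for both. Of the 42 members 5 were higher in muscle (Cdt1, Mcm2, Mcm4, Mcm6 and Kif23) and 0 lower, 4 of 19 S phase and 1 of 23 G2/M members, where 7.38% of all tested genes were called and 4.83% in the higher direction. All 5 were among the 8 called in WT, which is 100% of the Tg and 62.5% of the WT calls. With that shared spread a gene of low spread can pass in both. The share of such overlaps over all genes was not counted. The median log2 fold change was 0.45 for S phase and 0.03 for G2/M members, against -0.04 for all tested genes. Here 13 of 23 G2/M members were positive, against 23 of 23 in WT. Of all tested genes 46.9% were positive in Tg and 47.3% in WT. The Tg G2/M median was 0.31 without Tg muscle replicate 1 and -0.35 without replicate 2, and 0.30 without injured Tg spleen replicate 1 and -0.25 without replicate 2.

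**Figure D4:**
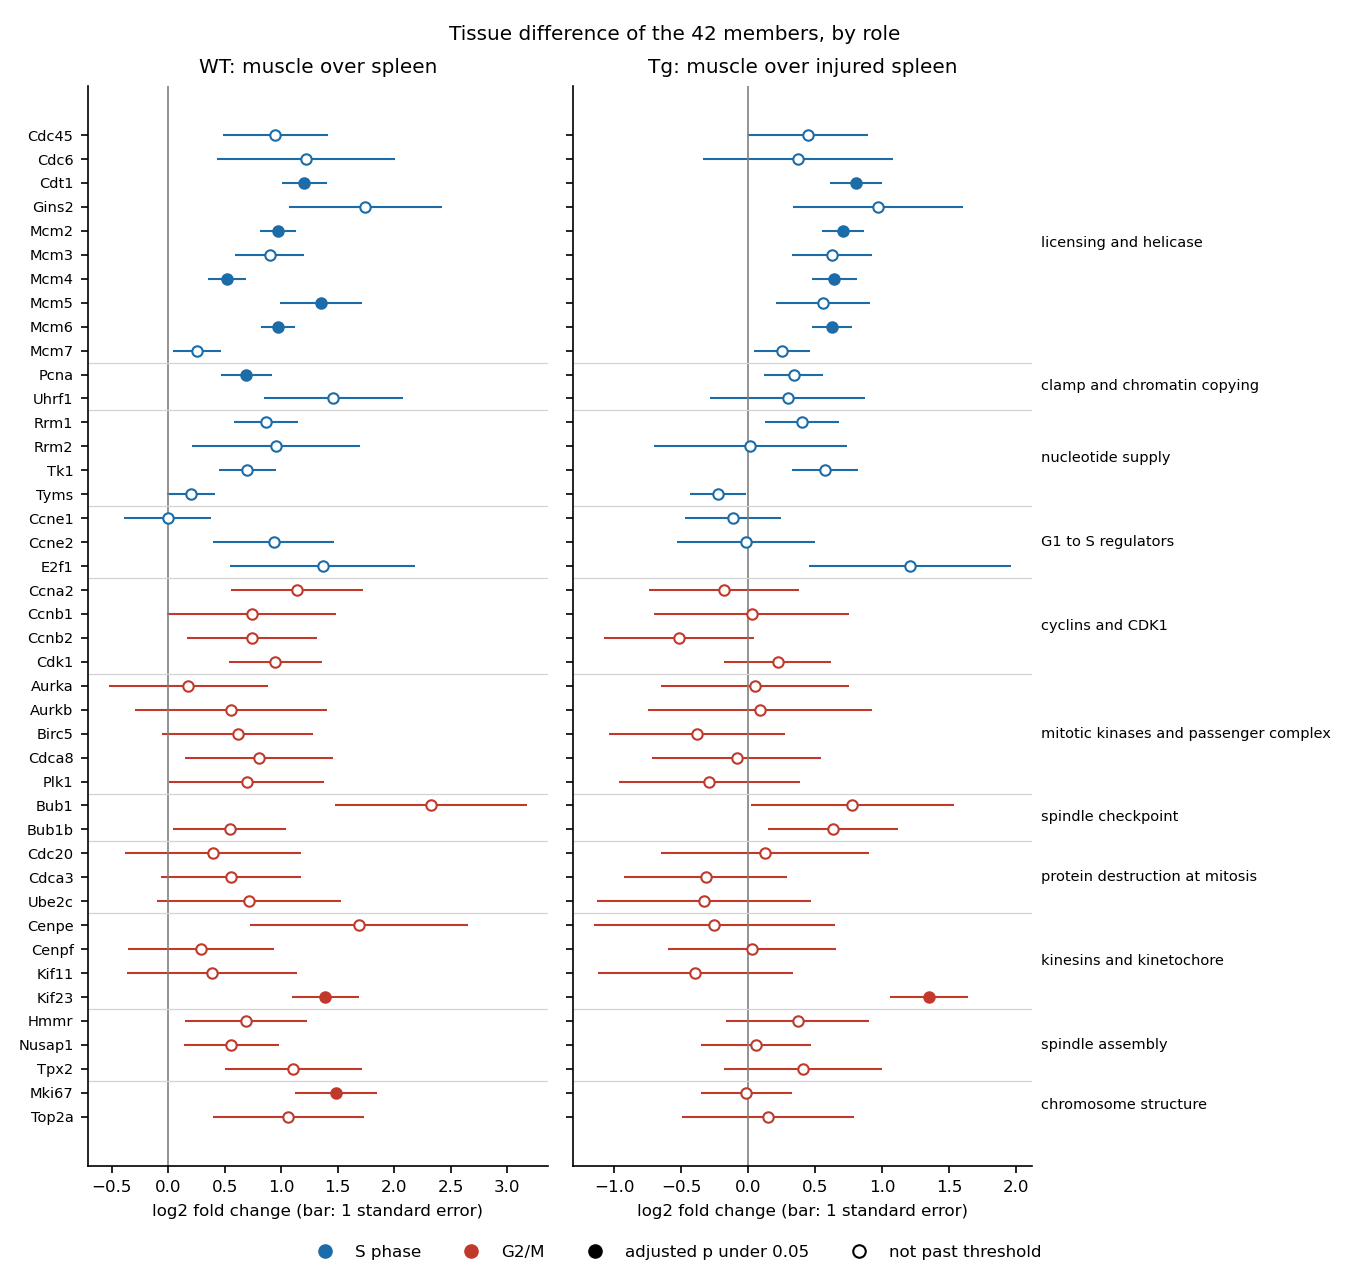
Log2 fold change of each member in muscle over spleen Tregs, with its standard error, in WT (left) and Tg (right), ordered by role with S phase genes in blue and G2/M genes in red. Filled points have an adjusted p under 0.05, 8 in WT and 5 in Tg. The licensing and helicase genes lie to the right of 0 in both panels, and the G2/M genes lie to the right in WT and on both sides of 0 in Tg.

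Counted by library values, 12 S phase and 4 G2/M members had both WT muscle libraries above both WT spleen libraries, and 0 had them below, where 18.7% of all tested genes lay above and 38.9% below. Among Tg libraries, 8 S phase and 1 G2/M members were above and 2 S phase and 5 G2/M members below, with 16.4% and 40.9% of all genes. With TMM scaling the WT counts were 16 S phase and 6 G2/M members above and 0 below (26.3% and 29.6% of all genes). The Tg counts became 13 S phase and 3 G2/M members above and 1 of each below (25.4% and 27.8%). The share of S phase members above was thus higher than that of all genes in both genotypes and with both scalings. The share of G2/M members above was not. Members and lists were picked with earlier results of these data in hand, so the S phase excess is no independent support. Of the 41 other S phase genes introduced below, library totals placed 8 above and 7 below among Tg libraries. TMM scaling made this 13 above and 4 below. For WT libraries, 16 of these genes lay above and 3 below by totals. By TMM, 22 lay above and 1 below.

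Single libraries set much of the WT count. The share of all genes called without each library was not counted, so the counts below describe the members alone. Without WT spleen replicate 2 only Cdt1, Mcm2 and Mcm6 were called (3 members), the S phase median was 0.44 and the G2/M median -0.05. Without WT spleen replicate 1, which leaves replicate 2 alone, 26 members were called, 13 of each phase, with a G2/M median of 1.89 and an S phase median of 1.29. The count was 5 without either WT muscle library and 5 without either injured Tg spleen library, which enter the fit through the shared spread. In Tg the count was 2 without Tg muscle replicate 1, 3 without Tg muscle replicate 2 and 0 without either injured Tg spleen library, while the log2 fold changes of Kif23 over all alternatives stayed between 1.30 and 1.40. In WT, Cdt1, Mcm2 and Mcm6 were called under each of the 18 alternatives, with log2 fold changes of 1.16 to 1.27, 0.89 to 1.08 and 0.80 to 1.17. Of the other WT calls, Kif23 was kept under 17 of the 18, Mki67 under 16, Mcm5 under 9, and Mcm4 and Pcna under 6 each. The 18 include fits without a library of a group not compared, which enters mainly through the shared spread. Such fits hardly test the fold change.

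The libraries of 1 group differed in a coordinated way, more in G2/M than in S phase members. In WT spleen 23 of 23 G2/M members were higher in replicate 1 than in replicate 2, by a median of 3.90 times, and 18 of 19 S phase members, by 1.90 times. For uninjured Tg spleen 0 of 23 G2/M members were higher in replicate 1, with a median ratio of 0.497, and 2 of 19 S phase members, with 0.769. Replicates therefore ran in opposite directions in these groups, as they also did in muscle. WT muscle had 22 of 23 G2/M members higher in replicate 1 (median ratio 1.62), Tg muscle 1 of 23 (0.668) and injured Tg spleen 20 of 23 (1.40). Over all genes with a mean of at least 10 counts the median ratio stayed between 0.965 and 1.04 in the 5 groups. In WT spleen most members were higher in replicate 1, and the B and plasma cell markers were higher in replicate 2. In replicates 1 and 2 the B cell markers summed to 60.4 and 1949 CPM, and the plasma cell markers to 49.8 and 1015 CPM. In uninjured Tg spleen the same markers summed to 86.4 and 69.8 CPM for B cells and 83.9 and 78.2 CPM for plasma cells. Its macrophage and monocyte markers summed to 100.6 CPM in replicate 1 and 44.8 CPM in replicate 2. The part of any of these cells in the replicate differences was not tested.

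**Figure D5:**
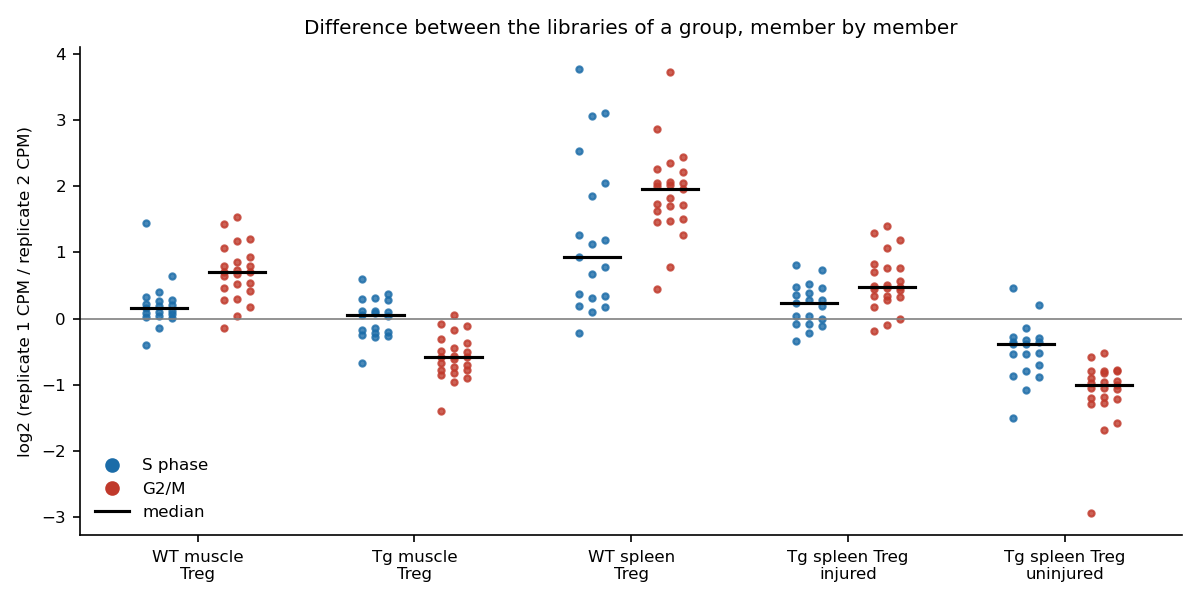
Log2 ratio of replicate 1 to replicate 2 (CPM) for every member in the 5 Treg groups, S phase in blue and G2/M in red, with the median as a line. The G2/M medians lie farther from 0 than the S phase medians in each group, at 0.70, -0.58, 1.96, 0.48 and -1.01 from left to right.

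Over the 10 Treg libraries the highest level of a member was a median of 5.41 times the lowest for G2/M and 3.12 times for S phase members. Mcm7 (1.63 times), Tyms (1.75) and Mcm4 (1.83) varied least. Cenpe (24.1), a kinetochore kinesin, and Cdc6 (23.3), an origin-loading factor, varied most, both with their lowest value in WT spleen replicate 2. Those lowest values were only 6 counts for Cenpe and 5 for Cdc6, so the ratios of both genes are imprecise. Per kilobase of exon, Mcm6 had the highest median level (66.6 CPM per kb), followed by Mcm3 (53.0), Mcm4 (51.9), Rrm2 (51.4) and, as the first G2/M member, Ccnb2 (37.9). Cenpf, a kinetochore protein with a long transcript, had the lowest (0.976).

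Other genes of the cycle were taken from lists that leave out the members, 41 of S phase and 50 of G2/M. In WT muscle against spleen, where 9.38% of all genes were called as higher, 6 of 41 S phase genes were higher and 0 lower, among them Mcm10 (1.65), an origin factor, Lig1 (1.31), the ligase that joins replicated fragments, Rfc3 (0.94), a loader of the clamp, and Dnmt1 (0.73), the maintenance DNA methyltransferase. Of the 50 G2/M genes 4 were higher, namely Shcbp1 (2.32), Prc1 (1.64), which bundles midzone microtubules, Cks2 (1.60), a Cdk1 subunit, and Tacc3 (1.37). Smc4, a condensin subunit, was lower (-1.09). The share of the G2/M list called as higher was below that of all genes. In Tg muscle against injured spleen 4.83% of all genes were called as higher. Of these lists 0 of 41 S phase and 0 of 50 G2/M genes were higher. At an unadjusted p under 0.05 there were 5 and 3, against 2706 of all 13188 tested genes. Cdc25b, the phosphatase that activates Cdk1, and Smc4 were lower (-0.70 and -0.58). The median log2 fold change of the S phase list was 0.54 in WT and 0.20 in Tg, and that of the G2/M list 0.70 in WT and 0.00 in Tg.

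Between genotypes no member passed in muscle. In Tg against WT muscle edgeR called 0 of 42 members (0.318% of all genes). At an unadjusted p under 0.05 there were also 0, against 1152 of all 13188 tested genes. DESeq2 and limma-voom called 0 as well. The log2 fold changes ran from -0.80 (Cenpe) to 0.71. The G2/M median was -0.24, with 3 of 23 positive, and the S phase median -0.05, with 8 of 19 positive. Of all tested genes 49.3% were positive. Single libraries set the G2/M median, which was 0.07 without WT muscle replicate 1 and -0.61 without replicate 2, and -0.05 without Tg muscle replicate 1 and -0.62 without replicate 2. The S phase median was 0.01 without Tg muscle replicate 1 and -0.08 without replicate 2.

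In injured Tg against WT spleen edgeR also called 0 of 42 (1.3% of all genes), limma-voom called 0 and DESeq2 called Mki67. At an unadjusted p under 0.05 there were 3 members, Mki67 among them, against 1422 of all 13188 tested genes. Mki67 was at 96.2 ± 21.8 CPM in injured Tg and 39.1 ± 14.5 in WT spleen (SD, n = 2). Its fitted log2 fold change was 1.33 ± 0.36 (edgeR adjusted p = 0.138). Tyms (0.51, adjusted p = 0.383) and Ccne1 (0.82, adjusted p = 0.443) were the others. In all, 38 of 42 members were positive, against 50.2% of all tested genes, with medians of 0.54 for S phase and 0.44 for G2/M. Without WT spleen replicate 2, which carries the B and plasma cell transcripts, the log2 difference of the summed G2/M level was -0.13 in place of 0.78, and that of the summed S phase level 0.03 in place of 0.37. The medians were 0.10 and -0.16 without WT spleen replicate 2, and 1.18 and 1.73 without replicate 1. Without injured Tg spleen replicate 1 they were 0.30 and 0.20, and without replicate 2 the G2/M median was 0.71. Of the other cycle genes Cdc25b was higher (0.86, adjusted p = 0.0298), the 1 of 50 G2/M genes called, and 0 of 41 S phase genes passed.

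Muscle injury at a distance was the question for the spleen of Tg mice. Between injured and uninjured Tg spleen edgeR called 0 of 42 members and 0% of all genes. At an unadjusted p under 0.05 there was 1 member, Mcm2 (-0.34 ± 0.16, adjusted p = 1), against 236 of all 13188 tested genes. By DESeq2 and by limma-voom 0 were called. Both injured libraries lay between the uninjured libraries in the S phase sum and in the G2/M sum given above. The spread within the uninjured group was thus wider than the difference of the group means.

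The difference of the tissue effects, Tg minus WT, was called for 0 of 42 members (0.136% of all genes). At an unadjusted p under 0.05 there was 1, Mki67, against 1046 of all 13188 tested genes. limma-voom called 0, and DESeq2 called 0 with 3 adjusted p-values missing. The median difference was -0.40 for S phase and -0.79 for G2/M members. Positive values were found for 2 of 42 members, against 49.2% of all tested genes. Without WT spleen replicate 2 the medians were -0.12 and -0.09, and without replicate 1 they were -0.89 and -1.97. The G2/M median also moved to -0.47 and -1.16 without WT muscle replicate 1 and 2 respectively, to -1.20 without Tg muscle replicate 2 and to -0.44 without injured Tg spleen replicate 1.

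Whole muscle held the members at far lower levels, in libraries where 6 fibre markers alone summed to between 153700 and 169000 CPM. The S phase sum was 136, 171 and 149.7 CPM in WT and 185, 159 and 166 in Tg, and the G2/M sum was 45.7, 75.5 and 68.9 CPM in WT and 80.2, 59.1 and 49.2 in Tg. The genotypes overlapped in both. WT replicate 1 was the lowest in both sums and also in the summed macrophage markers (209.6 CPM, against 491 to 867 in the other 5 libraries), fibroblast markers (2203 against 3890 to 6047 CPM) and muscle stem cell and myoblast markers (210.9 against 287 to 419 CPM), and the part of these cells was not tested.

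Of the 42 members 32 had enough counts to be tested in whole muscle, 17 S phase and 15 G2/M. edgeR called 0 of them in Tg against WT (0.0323% of all 12377 tested genes). At an unadjusted p under 0.05 there were 0, against 598 of all 12377 tested genes, and DESeq2 and limma-voom called 0. Medians were 0.17 for S phase and -0.11 for G2/M members, and single libraries turned the G2/M direction. Without WT replicate 2 they were 0.43 and 0.21, without WT replicate 3 they were 0.30 and 0.01, and without Tg replicate 3 they were 0.12 and 0.15. The G2/M median was -0.27 without WT replicate 1 and -0.23 without Tg replicate 1, where the S phase median was 0.11. Between 2 and 11 members per library had 3 counts or fewer, so small differences of these genes were not detectable at this depth. Of the other lists 28 S phase and 26 G2/M genes were tested, and 0 of each passed, with 2 and 2 at an unadjusted p under 0.05.

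The make-up of the whole muscle sums also differed from that of Tregs. Rrm1, the large subunit of ribonucleotide reductase, made up 26.2 to 31.0% of the S phase sum in whole muscle and 6.66 to 8.65% in Treg libraries. In WT whole muscle Rrm1 was at 42.1, 48.1 and 39.2 CPM, and in Tg at 54.6, 47.2 and 47.8 (log2 fold change 0.17 ± 0.15, adjusted p = 0.994). Ube2c made up 9.84 to 26.6% of the G2/M sum in whole muscle, against 3.32 to 6.83% in Tregs. It shares exon bases with Tnnc2 on the opposite strand, a fibre troponin at 911 to 1022 CPM in whole muscle and 0 counts in all Treg libraries, so its whole muscle counts are uncertain. Aurka, the centrosome kinase, made up 7.99 to 18.8% in whole muscle and 1.36 to 3.60% in Tregs.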

How the data were processed

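The authors deposited raw read counts per gene symbol for 16 libraries. STAR 2.5.4 and featureCounts with the mm10 build are named in the submitters' processing notes. The annotation, the strand option and the version of featureCounts were not given in the sources used here. Libraries were made by oligo(dT) priming, PCR and transposon tagging, per the labels' protocols, which marks no strand. The members and the gene lists were chosen with earlier results of these data known.

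CPM used library totals. Tests used edgeR 4.0.16 in R 4.3.3 (filterByExpr, TMM, robust glmQLFit, glmQLFTest, Benjamini-Hochberg adjustment over all tested genes, threshold 0.05), in 1 fit of the 10 Treg libraries (13188 genes, 5 residual degrees of freedom) and 1 of the 6 whole muscle libraries (12377 genes, 4 residual degrees of freedom). The SE is the log2 fold change divided by the square root of F. The procedure was tested on simulated data, drawn gene by gene with 1 spread for all genes. Those data held no coordinated shift between libraries of a group, so they cannot give error rates under such shifts. Alternatives were relative log expression scaling, other filters, DESeq2 1.42.0, limma-voom (limma 3.58.1), no robust dispersion, a replicate block, the compared groups alone and leaving out each library. Coordinates and exon lengths are from GENCODE M21 (GRCm38, the assembly of mm10), and promoters from RefSeq (GRCm38.p6). By rule, values per library are given for members called in any comparison and always for 12 members (Mki67, Top2a, Mcm2, Mcm5, Pcna, Rrm2, Ccne2, Ccnb1, Cdk1, Aurkb, Birc5, Ube2c), and up to 4 genes of each other list per comparison are named by the size of their change. No library was treated as a duplicate, since libraries of a group differed beyond counting error. The chi-square over its degrees of freedom was 31.9 in WT muscle and 5.9 to 9.92 in the other groups. No column of the table was left out.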

Additional observations from a re-analysis of the deposited data

How the results depend on the processing

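Of 42 members, 8 were called in WT muscle against WT spleen, and 16 with no filter, 22 with limma-voom and 5 in a fit of the compared groups only. Leaving out single libraries gave 3 to 26. In Tg muscle against injured Tg spleen 5 were called, and leaving out single libraries gave 0 to 6. For Tg against WT spleen 0 became 1 with no filter, with DESeq2 and in the compared groups only (Mki67 each time), and 0 to 7 without single libraries. For the difference of tissue effects 0 became 1 (Mki67) with no filter and 0 to 2 without single libraries. The share of all genes called under each alternative was not counted, so these counts describe the members alone. The cause was not tested. The log2 difference of the summed S phase level in Tg muscle against injured spleen was 0.29 and 0.48 with TMM scaling, which removes the shift of the median gene. In Tg against WT muscle it was -0.04 and 0.03 as a mean of log2(CPM + 1). Of the fold changes of called members under an alternative, 183 stayed past the threshold and 51 did not, and none changed sign. These include fits that leave out a library of a group not compared.

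Replicate numbers showed no pairing of the samples over all genes (correlations of same-numbered deviations from -0.042 to 0.094 in Tregs and from -0.026 to -0.005 in whole muscle). The labels do not say whether same-numbered libraries share an animal, and these correlations cannot settle it. With a replicate block 6 members were called in the WT and 5 in the Tg tissue comparison. With 2 libraries per group, leaving out 1 leaves a lone library that is assumed to vary like the other groups. In whole muscle 10 of the 42 members had too few counts to be tested.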
